A study of Mus musculus with 2 samples.

Results

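Desert peaks are accessible regions of colonic macrophages that lie far from every protein-coding gene. They were taken from the WT peak list of an ATAC-seq comparison of WT and Tle4-deleted macrophages. A WT peak on chromosomes 1 to 19 was counted when its summit pileup was 28 or more and when at least 100 kb separated it from the nearest RefSeq protein-coding gene span of mm10. The rule found 3029 desert peaks among 63921 WT peaks of that pileup on these chromosomes (4.74%), out of 128737 WT peaks in all. The WT pileup chose the desert peaks, so their WT pileups are given as a description. The pileup is the authors' own value for the highest stack of sequenced fragments or reads within a peak.

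The study sorted Siglec-F(-)Ly6C(lo)CD64(+) macrophages from the colon of male C57BL/6 mice aged 18.9 weeks, and used ATAC-seq, in which the Tn5 transposase cuts and tags open DNA. The WT group carried Lyz2-Cre, and the Tle4cKO group was Tle4f/f Lyz2-Cre, so that both groups carried the Cre transgene and differed in the floxed Tle4 allele. Lyz2-Cre acts in myeloid cells in general and not in colonic macrophages alone. Each group was 1 library of 2 pooled mice. No value below has a replicate check, and no SD or p-value between the groups can be given.

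Gene deserts are long stretches of chromosome without protein-coding genes. Accessible sites in them are often enhancers, short elements bound by transcription factors that can act on a promoter far along the chromosome, or starts of long noncoding RNAs. In macrophages such elements typically hold binding sites for PU.1, the lineage-defining ETS factor, together with sites for AP-1, RUNX, C/EBP and IRF factors. Tle4 is a Groucho-type corepressor that binds no DNA itself and is brought to chromatin by partners such as RUNX, TCF/LEF and HES proteins. A gene named below as a border of a desert marks position only, since an enhancer need not act on the nearest gene.

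Sequence was read from RefSeq promoter windows of GRCm38.p6, each from 250 bases before to 50 after an annotated start, because noncoding genes also start inside desert peaks. Of these windows, 77 from 71 genes lay wholly inside a desert peak, and they covered 69 desert peaks. The 4 printed here were chosen after their values were seen. They belong to the strongest desert peak that holds such a window, to the fullest cluster, and to deserts beside Tle3, a paralog of Tle4, and Hes1, a repressor that recruits Groucho proteins. Each reads 5′ to 3′ on the strand of the noncoding gene. Capitals mark matches on either strand to PU.1 (GAGGAAGT), AP-1 (TGANTCA), RUNX (TGTGGTT), the IRF element (GAAA, any 2 bases, GAAA) or the CTCF core (AGGGGGC).
Gm15323, between Map3k1 and Ankrd55, chr13:112000759-112001058, plus strand: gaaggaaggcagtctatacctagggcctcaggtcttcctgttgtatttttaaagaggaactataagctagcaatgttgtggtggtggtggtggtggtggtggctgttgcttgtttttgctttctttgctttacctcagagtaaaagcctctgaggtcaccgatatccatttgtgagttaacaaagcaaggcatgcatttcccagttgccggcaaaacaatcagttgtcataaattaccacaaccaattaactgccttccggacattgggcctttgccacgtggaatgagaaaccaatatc
Lncpint, between Klf14 and Mkln1, chr6:31218425-31218724, minus strand: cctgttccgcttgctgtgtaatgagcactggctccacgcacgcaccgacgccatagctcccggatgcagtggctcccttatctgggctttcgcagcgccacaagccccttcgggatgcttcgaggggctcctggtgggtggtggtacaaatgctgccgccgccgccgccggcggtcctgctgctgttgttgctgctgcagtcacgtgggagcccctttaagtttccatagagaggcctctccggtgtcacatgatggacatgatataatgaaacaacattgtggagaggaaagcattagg
Gm46116, between Uaca and Tle3, chr9:61056683-61056982, plus strand: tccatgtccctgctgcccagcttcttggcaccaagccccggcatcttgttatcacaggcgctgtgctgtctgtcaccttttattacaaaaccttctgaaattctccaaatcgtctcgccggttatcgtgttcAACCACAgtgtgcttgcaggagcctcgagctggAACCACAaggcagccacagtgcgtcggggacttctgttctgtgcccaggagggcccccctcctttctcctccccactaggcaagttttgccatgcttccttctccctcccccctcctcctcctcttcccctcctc
Gm32679, between Opa1 and Hes1, chr16:29847809-29848108, minus strand: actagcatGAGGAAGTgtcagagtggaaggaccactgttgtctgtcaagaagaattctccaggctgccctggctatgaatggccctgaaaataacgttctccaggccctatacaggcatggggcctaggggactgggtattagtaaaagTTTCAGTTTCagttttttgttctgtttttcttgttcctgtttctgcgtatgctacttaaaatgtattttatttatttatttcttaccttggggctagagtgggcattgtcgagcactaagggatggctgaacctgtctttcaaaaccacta

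The Gm15323 window lies in a peak that reached 216 in WT and 180 in Tle4cKO, and the Lncpint window in a peak with 157 and 138. Neither window held a match to these 5 motifs. Gm46116 has 2 windows in a single peak of 2698 bp with pileups of 143 and 96. The one printed held 2 RUNX matches, and the other, chr9:61056968-61057267, held 1 AP-1 match and no RUNX match. The Gm32679 window, in a peak with 82 and 54, held 1 PU.1 and 1 IRF match. A match is a string of letters and not a measured binding site. Over the 77 windows, PU.1 letters were found in 14.3%, against 4.88% of 1845 lncRNA windows inside other WT peaks of pileup 28 or more and 3.20% of all 32851 promoter windows. RUNX letters were found in 15.6%, 6.02% and 5.27% of the same windows, and AP-1 letters in 14.3%, 8.24% and 7.81%. C/EBP letters (TTNCNNAA) were found in 50.6%, 33.8% and 40.7%. The IRF letters were found in 3.90%, 3.04% and 3.44%, and the CTCF core in 10.4%, 13.9% and 10.6%. MAF letters (TGCTGA) were found in 20.8%, 16.4% and 19.5%. As a ratio of shares, PU.1 and RUNX stood furthest from the other lncRNA windows, over 11 and 12 desert windows with a match. AP-1 and MAF letters can share bases. The median GC content was 49.3% in desert windows, 59.0% in other lncRNA windows and 52.7% in all windows, and its part in these shares was not tested.

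The libraries were of similar list length but not of similar height. The WT list held 128737 peaks with a median pileup of 28, and the Tle4cKO list 128129 peaks with a median of 20. No source used here gives read totals or a scaling between them. Gene ends of the macrophage genes Csf1r, Cx3cr1, Adgre1, Fcgr1, Mertk, C1qa, Mrc1 and Spi1 held a peak in both libraries, 8 of 8 genes in each. Among 33 genes that mark other cell types, 17 had a gene-end peak in WT (pileup 28 or more) and 14 in Tle4cKO (20 or more), B cell and epithelial genes such as Cd79a and Epcam among them. The share of all protein-coding genes with such a peak is not given here, so these counts describe the listed genes only. An accessible gene end does not show which cell it came from, and the part of other cells in the results below was not tested.

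Desert peaks were of moderate height and spanned a wide range of distances. Their median pileup in WT was 56 (quartiles 38 and 89), and 485 reached 110 or more. The nearest protein-coding gene lay a median of 167 kb away (quartiles 129 and 238 kb). Of the 3029 peaks, 1083 were 200 kb or more from a gene, 140 were 500 kb or more and 27 were 1 Mb or more. The pileup minimum kept 35.1% of the 8637 WT desert peaks of any height, against 50.8% of all WT peaks on these chromosomes. Just inside the pileup minimum, 97 desert peaks had a pileup of 28 with a median width of 750 bp, and just outside it 104 had 27 with a median width of 750 bp. At the distance border, the nearest peak inside lay 100021 bp from a gene, between Klf7 and Creb1, with a pileup of 63. The nearest outside lay at 99985 bp, between Ptp4a1 and Lgsn, with a pileup of 53.

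The 10 strongest desert peaks lay in 8 deserts, and all 10 were also called in Tle4cKO at a lower pileup. The highest were 2 adjacent peaks on chromosome 17 between Esp15 and Esp38, with pileups of 314 and 300 in WT and 273 and 265 in Tle4cKO. Both overlap Rn18s-rs5 (chr17:39846354-39848202), which the gene table lists as a pseudogene related to 18S ribosomal RNA. Reads from the many ribosomal DNA copies outside the assembly could align there, and the part of such reads was not tested. Next came 2 peaks between Klf14, a Krüppel-like factor gene, and Mkln1, which encodes muskelin. The peak at chr6:31079488-31082081 had 226 in WT and 201 in Tle4cKO, and that at chr6:31216109-31217297 had 225 and 181. Between Ctnna3 and Reep3, 143668 bp from Reep3, a peak had 218 in WT and 174 in Tle4cKO. A peak 139392 bp from Pik3r1, the regulatory subunit of PI3-kinase, had 217 and 200. Peaks beside Prex1, a Rac exchange factor, and between Spring1 and Med13l, a Mediator subunit, had 217 each in WT, with 178 and 193 in Tle4cKO. The desert of Cxcl12, a chemokine gene, held a peak 249331 bp from Cxcl12 with 216 and 180, and that of Map3k1, a MAP kinase kinase kinase, held the Gm15323 peak printed above with the same values. Tle4cKO pileups in this group were thus 0.798 to 0.922 of the WT pileup, where peaks of like WT pileup had a median ratio of 0.847.

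Desert peaks were concentrated in few deserts. The 19 chromosomes have 1393 gene-free intervals of over 200 kb between protein-coding genes, the shortest length that can hold a desert peak. Of these, 453 held at least 1 (32.5%) and 940 held none. Another desert peak lay between a chromosome end and its outermost gene. Of the occupied intervals, 126 held a single peak, and 86 held 10 or more and together 1920 of the 3029 (63.4%). The 10 fullest held 466 (15.4%) in 1.54% of the sequence that lies 100 kb or more from a gene. That sequence comprised 680 Mb and held 4.45 such peaks per Mb, against 26.8 per Mb in intergenic sequence nearer to genes and 41.0 per Mb in gene spans. Length alone did not fill a desert, as the plot of peak number against the length of occupied intervals shows. The median length was 555 kb for occupied and 388 kb for empty intervals. Of the 50 longest intervals, 2602 kb or more each, 28 were empty, against 940 of all 1393, a larger share. Together these 50 held 133 peaks (0.867 per Mb). The longest, 4542 kb between Pcdh20 and Pcdh9, genes of neuronal cell adhesion, held none. By chromosome, the density was highest on chromosomes 10 (11.8 per Mb, 399 peaks) and 13 (10.7 per Mb, 358 peaks) and lowest on chromosome 7 (1.27 per Mb, 35 peaks).

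**Figure D1:**
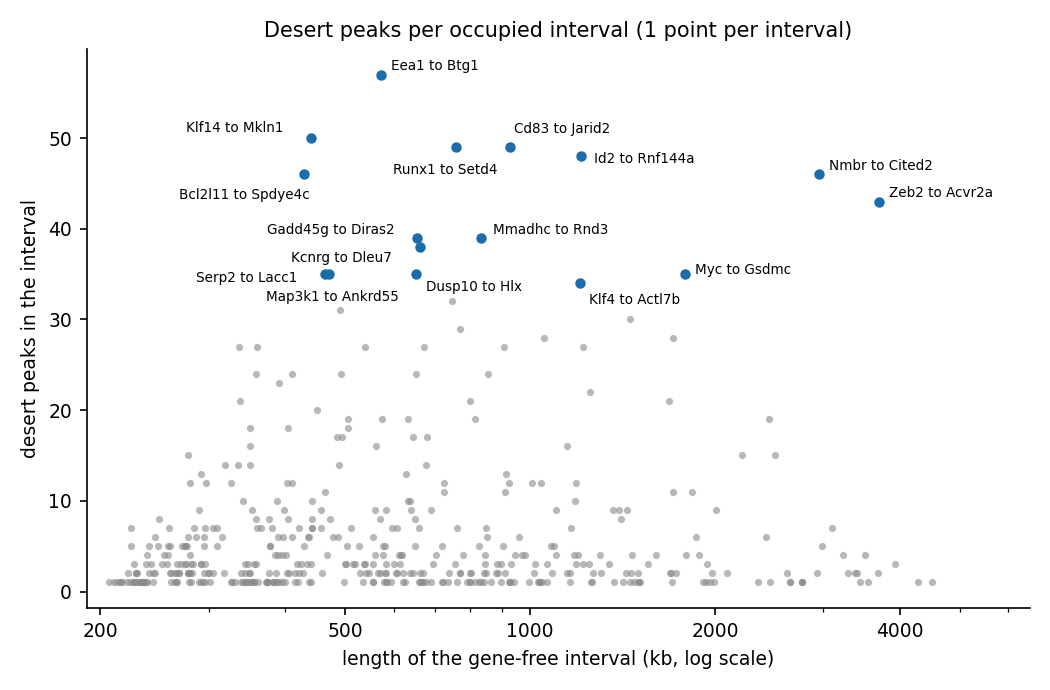
Number of desert peaks (vertical axis) against the length in kb of the gene-free interval (horizontal axis, log scale), 1 point for each of the 453 occupied intervals; the 16 fullest are named in blue. Intervals with 40 or more peaks range from 429 kb (Bcl2l11 to Spdye4c) to 3697 kb (Zeb2 to Acvr2a), while most long intervals hold few.

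The fullest desert, chr10:96045519-96617000, lay between Eea1, an early endosome tether, and Btg1, an antiproliferative factor of the BTG/TOB family. It held 57 desert peaks in 571 kb, the strongest with 203 in WT and 176 in Tle4cKO. The desert between Klf14 and Mkln1 (chr6:30958991-31398827) held 50 in 440 kb and contains the noncoding gene Lncpint and the miR-29a and miR-29b-1 hairpins. Between Runx1, the blood transcription factor and a DNA-binding partner of Groucho proteins, and Setd4 lay 49 in 757 kb, with a highest pileup of 164 in WT and 123 in Tle4cKO. Cd83, a surface protein of activated antigen-presenting cells, and Jarid2, a Polycomb component, bordered 49 peaks in 928 kb, the strongest with 196 and 160. Id2, an inhibitor of bHLH factors, bordered 48 in 1211 kb, and most of them lay toward Id2 rather than Rnf144a in the map of the 6 fullest deserts.

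Bcl2l11, which encodes the pro-apoptotic protein Bim, bordered 46 desert peaks in 429 kb, the strongest with 193 in WT and 156 in Tle4cKO. This desert contains Morrbid, a long noncoding RNA known to restrain Bcl2l11 in short-lived myeloid cells, and 29 of the peaks overlapped it. Cited2, a CBP/p300-binding coregulator, and Nmbr bordered 46 in 2952 kb. Zeb2, a zinc-finger repressor that maintains macrophage identity, and Acvr2a bordered 43 in 3697 kb. The desert of Gadd45g, a stress-response gene, held 39 in 656 kb, with 204 in WT and 166 in Tle4cKO at the strongest. Mmadhc, a gene of cobalamin metabolism, and Rnd3 bordered 39 in 831 kb. Peaks per Mb of sequence at least 100 kb from a gene separate these deserts: 208 for Klf14 to Mkln1, 201 for Bcl2l11 to Spdye4c and 153 for Eea1 to Btg1, but 16.7 for Nmbr to Cited2 and 12.3 for Zeb2 to Acvr2a. The densest desert with at least 5 peaks was short: 7 peaks between Avpr1a and Ppm1h in 24.0 kb of such sequence (292 per Mb).

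**Figure D2:**
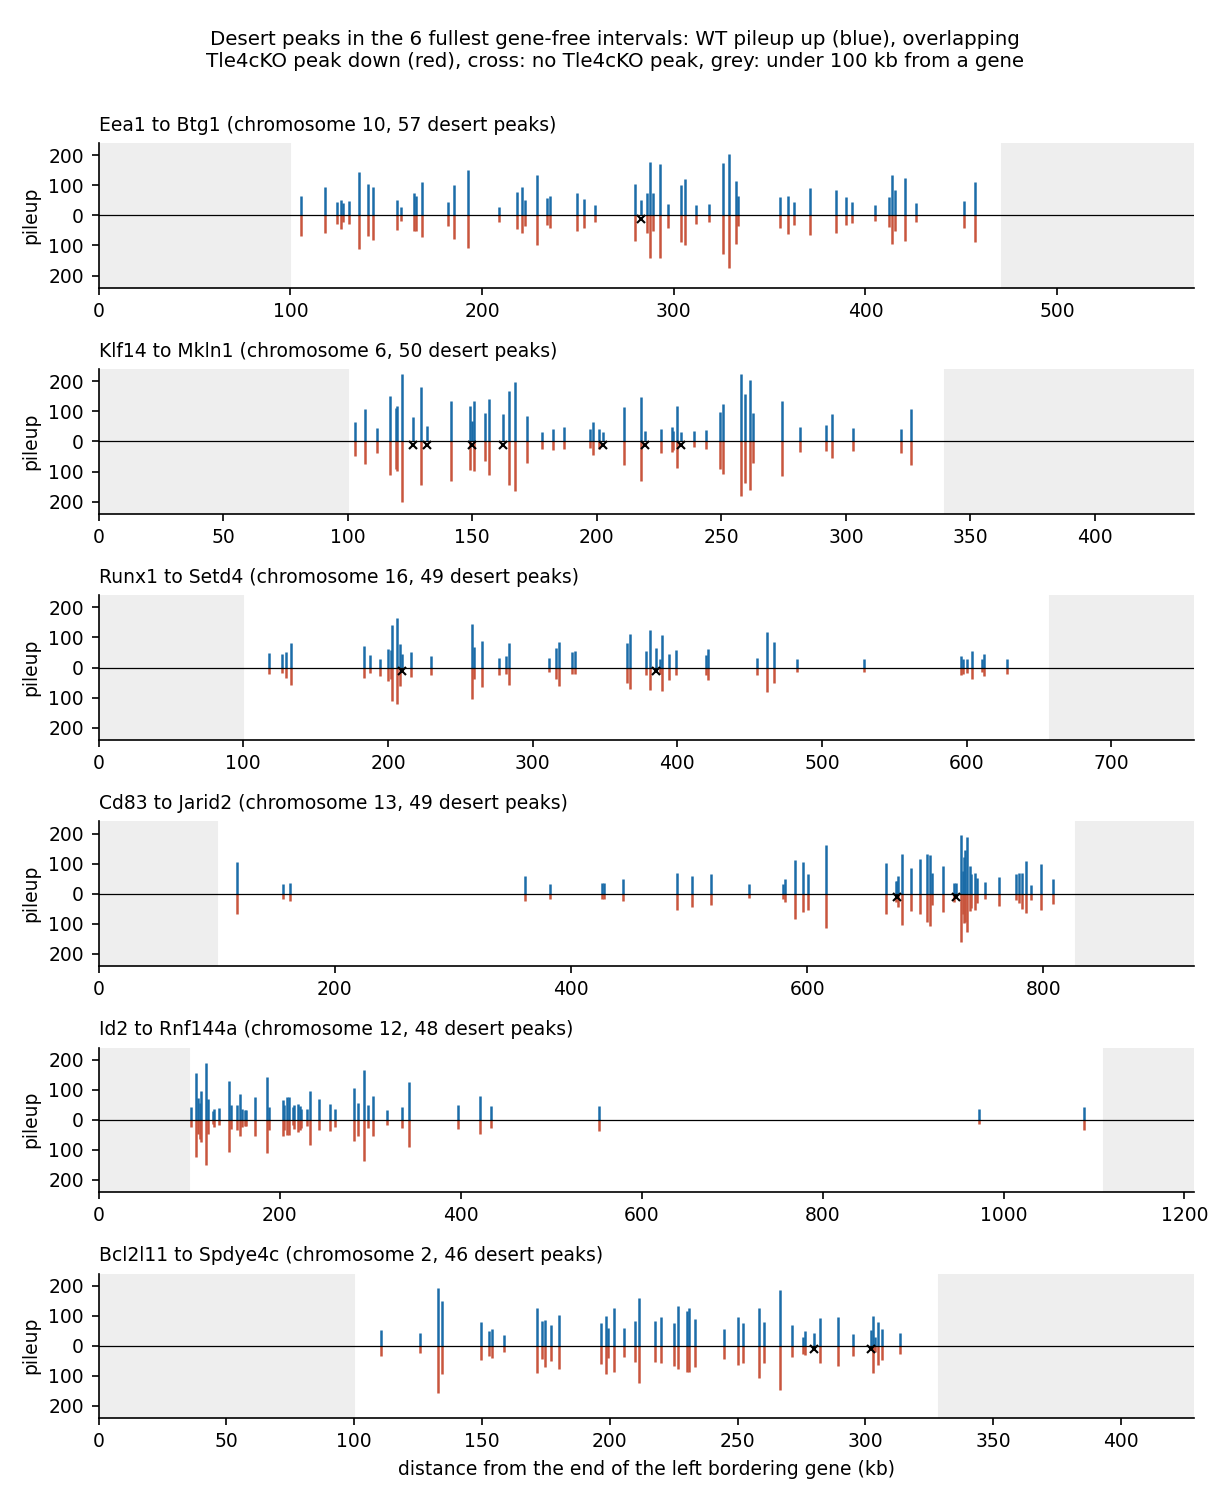
Desert peaks along 6 deserts that hold 46 to 57 of them, with distance in kb from the end of the left bordering gene on the horizontal axis. Bars give the WT pileup upward in blue and the pileup of the overlapping Tle4cKO peak downward in red, crosses mark peaks with no Tle4cKO overlap, and grey marks sequence under 100 kb from a gene. Nearly every blue bar has a shorter red partner, and 7 of the 14 crosses lie between Klf14 and Mkln1.

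Most desert peaks had close company. Another desert peak lay within 12500 bp, a common stitching distance for enhancer clusters, of 2304 of the 3029 (76.1%, 95% Wilson interval 74.5 to 77.6, which covers counting error only). The same measure within each other class was 79.5% for peaks in gene bodies, 78.2% for intergenic peaks under 100 kb from a gene and 39.9% for peaks within 1 kb of a gene end. Joined at that distance, desert peaks formed 1292 clusters, of which 725 were single peaks and 152 had 5 or more peaks and held 1265 of them (41.8%). The longest cluster ran for 201 kb between Klf14 and Mkln1 (chr6:31061651-31262368), with 48 peaks, a median WT pileup of 93 and 7 peaks that had no Tle4cKO overlap. The cluster between Bcl2l11 and Spdye4c spanned 118 kb with 33 peaks and a median pileup of 80. A cluster of 108 kb beside Trib1, a pseudokinase gene known for its part in myeloid C/EBP-alpha turnover, had 22 peaks and a median pileup of 108. Another, between Kcnrg and Dleu7, had 19 weaker peaks in 101 kb (median 47), and that between Cd83 and Jarid2, had 24 in 97.3 kb (median 80).

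Some microRNA genes lay near desert peaks. RefSeq places 100 miRNA hairpins at least 100 kb from a protein-coding gene on these chromosomes, and 7 lay within 5 kb of a desert peak. No such share is given here for other positions, so the count is a description only. The hairpins of miR-29a and miR-29b-1, miRNAs known for targeting collagen and other matrix transcripts, lie 414 and 777 bp from the peak at chr6:31061651-31062245, with pileups of 65 in WT and 48 in Tle4cKO. Those of let-7c-1 and miR-99a lie 1724 and 2474 bp from a peak between Usp25 and Cxadr with pileups of 70 and 50. Mature sequences from RefSeq are given with the seed, bases 2 to 8, in capitals.
miR-29a-3p: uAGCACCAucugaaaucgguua
miR-29b-3p: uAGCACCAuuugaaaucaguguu
let-7c-5p: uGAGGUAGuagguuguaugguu
miR-99a-5p: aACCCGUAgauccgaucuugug
The miR-29 arms share the seed AGCACCA, while let-7c (GAGGUAG) and miR-99a (ACCCGUA), processed from neighbouring hairpins, do not share one.

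Genes of macrophage regulation often bordered occupied deserts. Of all 20665 protein-coding genes on these chromosomes, 2374 border an interval of over 200 kb, and for 849 of these (35.8%) an adjoining interval held a desert peak, with a median of 3 peaks. Among 48 macrophage transcription factor genes, 26 border such an interval and 20 of them (76.9%) an occupied one, with a median of 15.5 peaks. Runx1 (49 peaks), Id2 (48), Zeb2 (43), Klf4 (34) and Prdm1 (27), which encode transcription regulators of myeloid or lymphoid cells, had the most in a single adjoining desert beside Myc (35). Klf6 bordered 22 and 14 on its sides and Maf, a factor of resident macrophages, 18 and 1. Cebpb, a bZIP factor of myeloid cells, bordered 5, but in 40.3 kb of sequence that far from a gene. Nr4a2, Tfec and Foxp1 bordered 1 each. The list was chosen with earlier results of these data known, and large deserts are also common at developmental regulators, so the counts describe these genes only.

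Of 40 surface, cytokine and receptor genes of macrophages, 9 border an interval of over 200 kb, against the 2374 of 20665 protein-coding genes given above, and 6 of the 9 border an occupied one, with a median of 9.5 peaks. Cd83 led with 49, followed by Ptger4, a prostaglandin E2 receptor, with 28 and Tnfaip3, an NF-kappaB inhibitor, with 10. Tgfbr2, a TGF-beta receptor, and Ptprc, which encodes CD45, had 9 each, and Tlr4 had 1. The strongest peak of the Ptger4 desert reached 193 in WT and 156 in Tle4cKO.

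Among 17 TLE family members, partners and targets, 8 of the 11 that border an interval of over 200 kb border an occupied one. Runx1 had the most, 49, and both Runx1 and Rbpj are also in the list of macrophage factors. Tle3 had 24 toward Uaca and 17 toward Rplp1, with 198 in WT and 166 in Tle4cKO at the strongest. Tle4 itself bordered 2 on each side, none above a pileup of 71, and all 4 had a Tle4cKO partner. Tle1 had 8, Hes1 12, Rbpj 15, and Lef1, a Wnt-pathway DNA-binding partner, 7. At Lef1, 2 of the 7 had no Tle4cKO overlap, against 2.31% of all desert peaks. The median WT pileup of these 7 was 41, and a missing overlap was commoner among weak desert peaks. Runx1 had 2 such peaks among its 49, and Tle3 had 1 toward Uaca and 0 toward Rplp1. Tle1, Tle4, Hes1, Rbpj and Tcf7l2 had 0. The cause at Lef1 was not tested.

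Deserts of other gene groups held fewer desert peaks. Of 36 developmental transcription factor genes 30 border a long interval, and 10 of them (33.3%) an occupied one, with a median of 3.5 peaks. Tshz1 had 12 and Sox9, known for a very long regulatory domain, had 9, with a peak of 194 in WT and 156 in Tle4cKO. Neural adhesion and guidance genes bordered occupied deserts in 15 of 26 cases (57.7%), but with a median of 2 peaks and none with 10 or more. Of 33 markers of other cell types, 10 border a long interval and 3 an occupied one: Ebf1 with 4 peaks, Kit with 3 and Gata3 with 1, none above a pileup of 40. At least 10 desert peaks adjoined 13 of the 48 macrophage transcription factor genes, 3 of the 40 surface genes, 4 of the 17 TLE-related genes, 1 developmental gene and 175 of all 20665 genes (0.847%). Runx1 and Rbpj count among both the macrophage factors and the TLE-related genes.

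**Figure D3:**
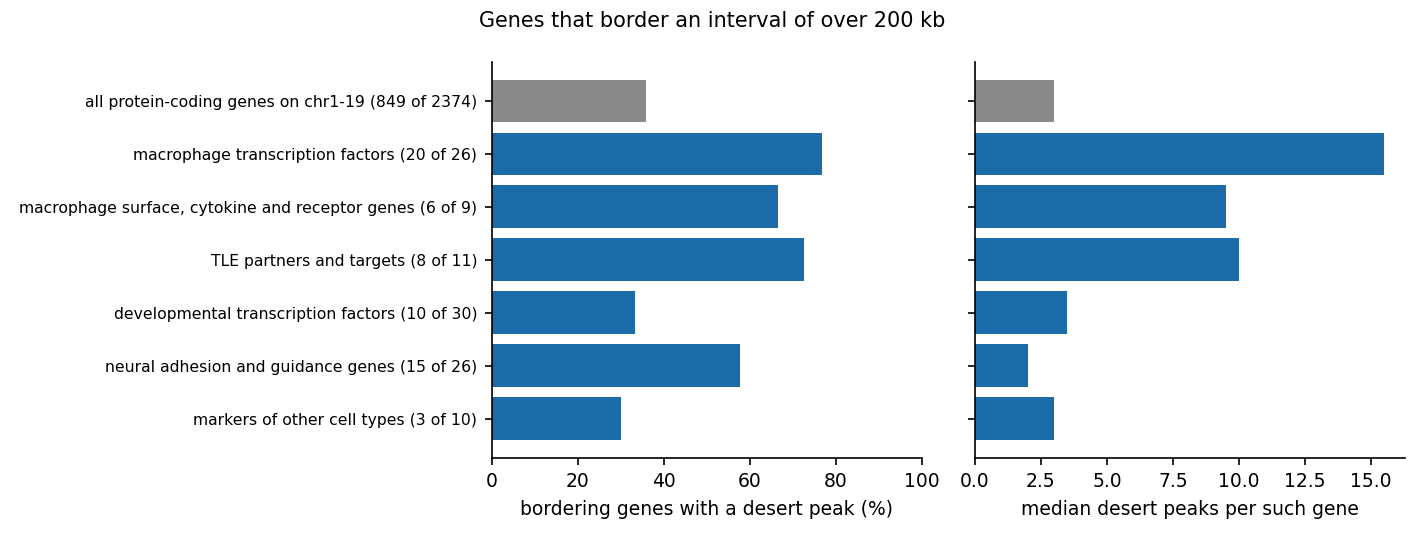
For each gene list, the percentage of genes bordering an interval of over 200 kb whose interval holds a desert peak (left) and the median number of desert peaks for those genes (right); the numbers of genes are given beside each name. Macrophage transcription factors stand at 76.9% with a median of 15.5 peaks, all genes at 35.8% with a median of 3, and neural adhesion genes at 57.7% with a median of 2.

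Desert peaks were a little wider than the median peak of like height, as were peaks 50 to 100 kb from a gene. Their median width was 922 bp (quartiles 724 and 1209). Against the median of WT peaks of like pileup, taken in 49 classes of WT pileup, their width was 1.03-fold, with 1.11-fold for gene ends and 0.971-fold and 0.973-fold for gene bodies and nearer intergenic peaks. On the log2 scale, median relative width outside genes was -0.13 under 10 kb, 0.0052 at 10 to 50 kb and 0.030 at 50 to 100 kb. In the desert bands it was 0.0099 at 100 to 200 kb from a gene, 0.077 at 200 to 500 kb and 0.19 at 500 kb or more. The sign turned for strong peaks: with a pileup minimum of 67 the median relative width was -0.029 on the log2 scale, against 0.043 at 28.

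Noncoding genes ran through many desert peaks. An annotated lncRNA overlapped 919 of the 3029 (30.3%, 95% Wilson interval 28.7 to 32.0), against 21.3% of intergenic peaks under 100 kb from a gene, and 353 lncRNAs were involved. Lncpint, a p53-induced lncRNA, held 31 desert peaks with a highest pileup of 225. Morrbid held 29 (highest 184), A930011G23Rik 24, Gm13986 between Rasgrp1 and Thbs1 22, and Pvt1, the lncRNA beside Myc, 11 (highest 104). A further 26 desert peaks overlapped antigen receptor loci, which RefSeq does not type as protein-coding, so that in these the rule finds gene segments rather than empty sequence.

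Nearly every desert peak was also called in Tle4cKO. Only 70 of the 3029 overlapped no Tle4cKO peak by 1 bp or more (2.31%, 95% Wilson interval 1.83 to 2.91), against 4.04% of all 63921 WT peaks of pileup 28 or more. At the pileups of the desert peaks, the rate of all WT peaks would give 4.87%, or 148 peaks. The share was 1.82% at gene ends, 5.08% in gene bodies and 4.31% in nearer intergenic sequence. It fell with pileup in desert and other peaks alike. At a pileup of 28 to 34 it was 34 of 529 desert peaks (6.43%) and 10.8% of other WT peaks. At 80 to 109 it was 3 of 450 (0.667%), against 0.618% of the others. At 110 or more it was 0 of 485, which allows a share of up to 0.619%, against 0.024% of the others. Among desert peaks with no other WT peak within 1 kb, 35 of 2128 (1.64%) had no Tle4cKO overlap, against 2.92% of all such WT peaks.

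**Figure D4:**
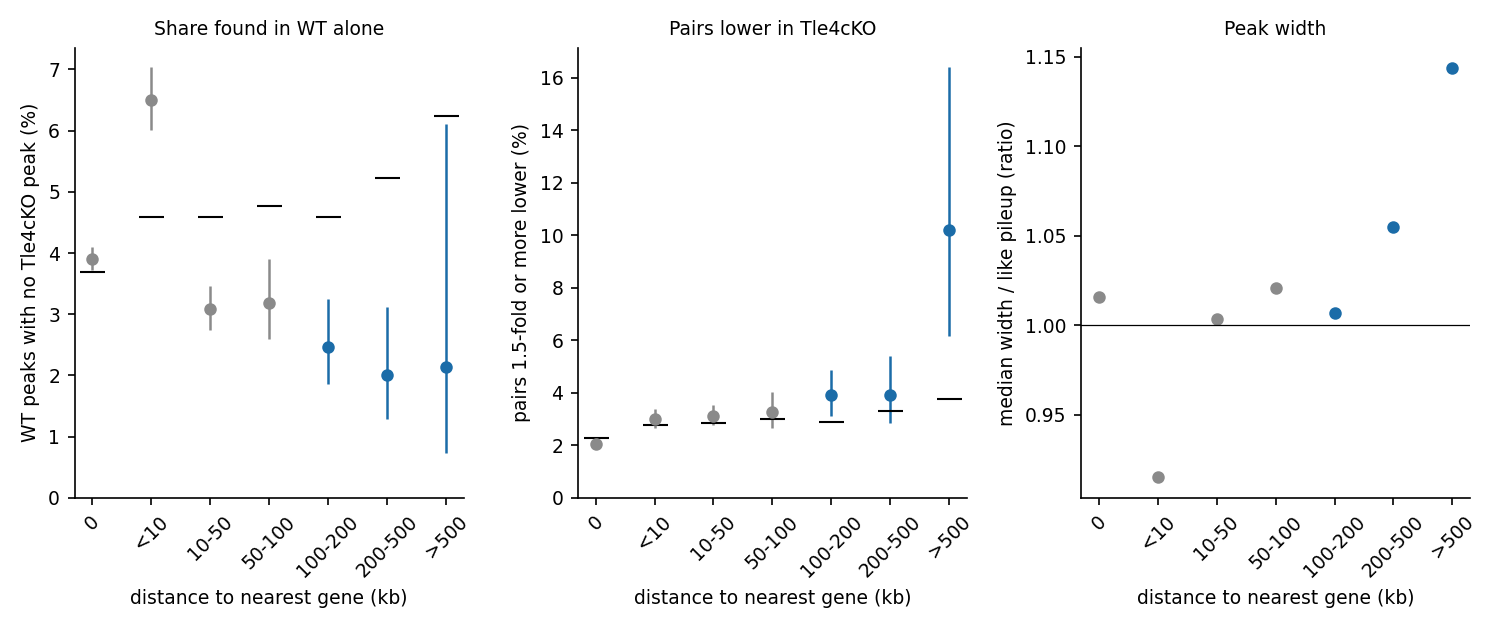
Peaks of pileup 28 or more by distance in kb to the nearest protein-coding gene span (horizontal axis, 0 is inside a gene; desert bands in blue). Left and middle panels give the percentage of WT peaks with no Tle4cKO peak and of pairs 1.5-fold or more lower in Tle4cKO, with 95% Wilson intervals (counting error only) and black dashes for the share at like WT pileup; the right panel gives the median width over that at like pileup. Desert bands have 2.01% to 2.47% without a Tle4cKO peak, below the dashes. The bands at 10 to 50 and 50 to 100 kb, with 3.08% and 3.18%, are also below theirs. The farthest band has 10.2% lower pairs.

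The 70 WT-only desert peaks were small, and 34 of them lay within 1 kb of a Tle4cKO peak. Their median pileup was 35, their median width 408 bp and the distance to the nearest Tle4cKO peak a median of 1036 bp, and 18 lay within 500 bp of one. Klf14 to Mkln1 held 7 of them, including the strongest, chr6:31121298-31121661, with a WT pileup of 93 and a Tle4cKO peak of pileup 146 at 1125 bp. A peak between Ado and Zfp365 had a pileup of 82, 600 bp from a Tle4cKO peak of 114. Further WT-only peaks with pileups of 82 and 69 also lay between Klf14 and Mkln1. Single ones lay beside Hlx (68), Map3k1 (62), Irf2bp2 (58) and Pik3r1 (57 on each side of the gene). Another, with 64, lay between Runx1 and Setd4, nearer to Setd4. Among the 10 strongest, 1 lay far from any Tle4cKO peak: chr6:10690285-10691008 between Nxph1, a neurexophilin gene, and Ndufa4, 1209363 bp from the nearest gene. It had a WT pileup of 61 and its nearest Tle4cKO peak, of pileup 8, lay 159841 bp away. A neighbouring WT peak of pileup 27, 253 bp away, also had no Tle4cKO overlap.

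Desert peaks of the Tle4cKO list were counted by the same rule, with that list's median pileup of 20 as the minimum. They numbered 2994 among 63481 (4.72%). Of these, 33 overlapped no WT peak (1.10%, 95% Wilson interval 0.786 to 1.54), against 1.76% of all such Tle4cKO peaks. The strongest, named after their values were seen, lay between Klf14 and Mkln1 at chr6:31112791-31113227 with a pileup of 76 and chr6:31111335-31111630 with 66. Others lay between Bcl2l11 and Spdye4c (54), nearer to Spdye4c, between Jun, an AP-1 subunit, and Fggy (51), and again between Klf14 and Mkln1 (47). The Klf14 to Mkln1 desert therefore held the strongest peaks found in only 1 library on both sides, 7 WT-only and 4 Tle4cKO-only, beside a median relative log2 ratio of 0.05 for its 43 pairs.

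Where both libraries had the peak, the Tle4cKO pileup was lower almost throughout, as it was genome-wide. Of 2944 desert pairs, in which each peak was the highest overlap of its partner, WT was higher in 98.3%, against 98.6% of all 60846 pairs. The median ratio of Tle4cKO to WT pileup was 0.692 in desert pairs and 0.725 in all. Since no scaling between the libraries is recorded, each log2 ratio was set against the median of pairs of like WT pileup. On this relative scale the desert median was -0.026 (quartiles -0.20 and 0.13; 95% order-statistic interval of the median -0.038 to -0.016, over pairs, which are not replicates), against 0 over all pairs. For intergenic pairs under 100 kb from a gene the median was -0.016, so a small shift below 0 was not particular to deserts. The SD over pairs was 0.28 in deserts and 0.25 in all.

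Desert pairs past a 1.5-fold relative difference were more often lower than higher in Tle4cKO. Lower pairs numbered 124 (4.21%, 95% Wilson interval 3.54 to 5.00), against 2.49% of all pairs and 3.07% of all pairs at the same pileups. Higher pairs numbered 36 (1.22%, 0.885 to 1.69), against 1.0% and 1.26%. Among intergenic pairs under 100 kb from a gene, 3.12% were lower and 1.03% higher, against 2.85% and 1.15% at like pileup. The lower desert pairs came from weak peaks (median pileups 37.5 in WT and 15 in Tle4cKO) and lay in 89 deserts with at most 5 in any. When the peaks were instead chosen and classed by Tle4cKO pileup (20 or more), lower pairs were 1.70% and higher pairs 2.96%, against 1.06% and 2.47% of all pairs so classed. With the peaks still chosen on WT pileup but classed by the sum of both pileups, lower pairs were 2.62% and higher pairs 0.985%, against 1.69% and 0.842% of all pairs. The split between lower and higher calls thus moved with the way the pairs were chosen and classed. Each share of desert pairs was above that of all pairs in both settings. These shares of all pairs were not taken at like pileup, so they do not show an excess particular to deserts. In the first classing, the share of higher desert pairs (1.22%) was above that of all pairs (1.0%) but not above that at the same pileups (1.26%).

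**Figure D5:**
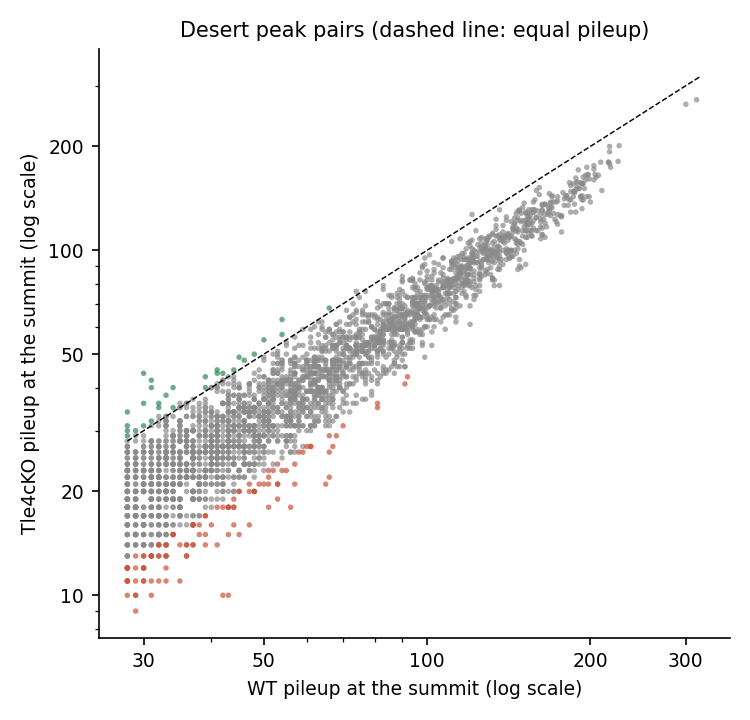
Tle4cKO pileup (vertical axis, log scale) against WT pileup (horizontal axis, log scale) at the summit, 1 point for each of the 2944 desert pairs, with the dashed line at equal pileup. Red points are the 124 pairs 1.5-fold or more lower than pairs of like WT pileup and green points the 36 higher ones; both lie at WT pileups of 92 or less.

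The lowest pair lay between Kcnrg and Dleu7 (chr14:62118394-62119249), at 43 in WT and 10 in Tle4cKO. Its relative log2 ratio was -1.54. Close behind, between Slc7a11, the cystine transporter, and Noct, a circadian gene, a peak had 42 and 10 (-1.49). The other 3 of the 5 lowest lay beside Dnajc1 (29 and 9), Igf1, which encodes insulin-like growth factor 1 (35 and 11), and Tcf4, an E protein gene (56 and 18). The highest pair lay between Tmtc1 and Ipo8, with 30 in WT and 44 in Tle4cKO, 2.2-fold the ratio of pairs of like pileup. It was followed by a pair between 4930474N05Rik and Ccser2 (31 and 42), nearer to 4930474N05Rik. Next came pairs beside Lrrc3b (31 and 40) and beside Fgfr2, a fibroblast growth factor receptor (30 and 36). The last of the 5 lay between Dmac1 and Ptprd, a receptor phosphatase of neurons (28 and 34), nearer to Dmac1. All 5 highest pairs had WT pileups near the minimum of 28.

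Whole deserts shifted little. In 85 deserts with at least 10 pairs, the median relative log2 ratio ran from -0.32 to 0.16 and was below 0 in 58. The lowest was between Lmo7, a LIM-domain gene, and Kctd12, where 9 of 12 pairs were below 0. There the strongest pair had 148 in WT and 90 in Tle4cKO (relative log2 ratio -0.35), while the next had 143 and 121 (0.13). Zeb2 to Acvr2a had a median of -0.16, with 28 of 41 pairs below 0 and 5 at least 1.5-fold lower. Its strongest pair, 128311 bp from Zeb2, went the other way, with 161 in WT and 145 in Tle4cKO (0.18). The highest median was between Adgrl2 and Adgrl4, adhesion receptor genes, where 3 of 19 pairs were below 0. In that desert the strongest pair had 154 and 128 (0.08). Klf14 to Mkln1 had a median of 0.05 over 43 pairs and Runx1 to Setd4 of -0.11 over 47. No desert was tested, since its peaks come from the same pair of libraries.

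The desert peaks farthest from genes differed among themselves. The farthest, chr5:59996422-59997265 between Pcdh7 and G6pd2, lay 1812 kb from a gene, with pileups of 53 in WT and 35 in Tle4cKO. Between Pabpc4l and Pcdh18, peaks at 1642 and 1632 kb had 63 and 36 and 55 and 54 in turn. A peak between Cntnap5b and Cdh20, 1411 kb away, had 66 and 59. In the Zeb2 desert, a peak 1324 kb away had a width of 2636 bp and pileups of 122 and 74. Among all 137 pairs 500 kb or more from a gene, 14 were at least 1.5-fold lower in Tle4cKO (10.2%, 95% Wilson interval 6.19 to 16.4), against 3.78% at like pileup. Of these 14, 5 lay in the Zeb2 desert and 4 in antigen receptor loci. Without the Zeb2 desert the share was 7.38% (3.93 to 13.4), and without the antigen receptor loci it was 8.47% (4.67 to 14.9). Without both, 5 of 103 pairs were lower (4.85%, 2.09 to 10.9), against 3.71% at like pileup. These places were left out after they were seen to hold most of the lower pairs, so a smaller share without them was fixed by that choice.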

How the data were processed

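Each deposited list holds peaks called by the authors separately for 1 library, with position, width, summit and pileup; the pileup is a signal, as deposited, of whole numbers, per the file headers. The submitters' processing notes give build mm10 and, with no roles, HOMER 4.7.2, edgeR 3.28.1, MACS2 2.1.1, Bowtie2 2.2.5, featureCounts 1.5.0 and cutadapt 1.14. Calling thresholds, read shifting, duplicate handling, read totals and scaling: not given in the sources used here.

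Distances are bases between a peak and the nearest protein-coding span in a RefSeq table (GRCm38.p6, the same assembly as mm10). Overlap means 1 bp or more and was checked with bedtools 2.31.1; values were computed with Python 3.11.15, pandas 2.3.3 and numpy 2.4.6. Log2 pileup ratios and widths were read against WT peaks of like WT pileup. The steps were tested on simulated data. With 1 library per genotype, shares have 95% Wilson intervals for counting error only.

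The desert peaks and the gene lists were chosen with earlier results of these data known. Named genes border the 10 strongest desert peaks, the 10 fullest deserts, the 10 strongest WT-only peaks, the 5 highest and 5 lowest pairs, the 5 farthest peaks and the 5 longest clusters, or belong to 1 of 6 lists; others, such as the borders of deserts with the lowest and highest medians, were chosen after their values were seen. No genome sequence was used, so the motif search planned on peak summits was made on RefSeq promoter windows.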

Additional observations from a re-analysis of the deposited data

How the results depend on the processing

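Changing the pileup minimum from 28 to 20, 40 or 67 changed the share of desert peaks without a Tle4cKO overlap. It moved from 2.31% to 5.19%, 1.27% and 0.418%, against 6.42%, 2.41% and 0.525% of all WT peaks at these minima. The share with another desert peak within 12500 bp moved from 76.1% to 78.1%, 73.04% and 65.7%. At 40 and 67, pairs at least 1.5-fold lower made up 2.49% and 0.589% in place of 4.21%, against 1.54% and 0.495% of all pairs. At 20, 40 and 67, pairs at least 1.5-fold higher made up 2.09%, 0.599% and 0% in place of 1.22%. Of all pairs, 1.66%, 0.427% and 0.0254% were higher at these minima. At 67 the median relative log2 width turned from 0.043 to -0.029 and the 10 fullest deserts held 18.6% in place of 15.4%; developmental genes beside an occupied desert fell from 10 to 6, neural genes from 15 to 7 and markers of other cell types from 3 to 0, the last being 1 at a minimum of 40.

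With a distance of 50 kb, 77.9% had a close neighbour, the 10 fullest deserts held 9.59%, and 10 surface genes (6 at 100 kb) and 5 markers of other cell types bordered an occupied desert. At 200 kb the values were 68.6% and 25.02%, the median relative log2 ratio was -0.040 in place of -0.026 and relative log2 width 0.093, and 4 TLE-related genes (8 at 100 kb) and 0 markers of other cell types remained at a border. With noncoding genes also counted as genes, 1.62% lacked a Tle4cKO overlap, 59.9% had a close neighbour, the 10 fullest deserts held 40.1%, and the median relative log2 ratio and width were -0.049 and 0.121. Borders are then mostly noncoding genes, so the list counts were 0 for macrophage factors, surface genes and TLE-related genes, 1 for developmental genes, 2 for neural genes and 1 for markers of other cell types.

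An overlap of at least 50% of the WT peak left 7.63% without a Tle4cKO partner, and a tolerance of 500 bp left 1.72%. Of all WT peaks, these settings left 9.18% and 2.97%. Neighbours within 5 and 25 kb gave 59.6% and 84.5%, and the 10 densest deserts held 8.68%. Some alternatives were added after the data were seen. Peaks with no other WT peak within 1 kb gave 1.64% WT-only; choice by Tle4cKO pileup gave a median relative log2 ratio of -0.014, 1.70% lower and 2.96% higher pairs; classing by summed pileup gave 2.62% lower pairs. Where no cause is named above, the cause was not tested. Leaving out antigen receptor loci and the chromosome 17 peaks moved no result beyond its interval.

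No paired analysis was possible because each genotype has 1 library. Peaks called separately in each library can differ in borders and splitting, the depth is unknown, and the peaks were chosen on WT pileup. Weak peaks are the least certain.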

Other observations

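Antigen receptor loci held 26 desert peaks with pileups of 30 to 97: 17 at Igh, 4 at Igk, 3 at Tcrb and 2 at Tcra. All 26 had a Tle4cKO partner. Of the 26 pairs, 4 were at least 1.5-fold lower and 2 at least 1.5-fold higher than pairs of like pileup, against 2.49% and 1.0% of all 60846 pairs. The shares of all pairs were not taken at the pileups of these 26 (median 41 in WT), so the comparison is not like for like. These loci encode B and T cell receptors, and the sort kept CD64(+) cells; the part of lymphocytes or of repeated gene segments in these peaks was not tested.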
